A study of Mus musculus with 8 samples.

Results

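Erythropoietin and KIT receptor signalling was followed through 10 genes in the spleens of mice that lack Nix and of wild-type mice: Epor and Kit, which encode the receptors, Jak2, Stat5a and Stat5b, which carry the signal, Gab1, an adaptor, and Cish, Socs2, Socs3 and Pim1, which the pathway switches on. They were chosen by symbol, as all probe sets annotated to these 10 genes, and make up 10 of the 18193 genes that the array names and 24 of its 45037 probe sets after control probe sets were set aside. None of the 24 probe sets is annotated jointly to another gene. Nix, whose gene symbol is Bnip3l, encodes a mitochondrial outer membrane protein that is needed to clear mitochondria from maturing red cells. The series compared 4 Nix null mice (Nix-/-), here Nix_KO, with 4 wild-type controls, here WT, all 8 weeks old, untreated, and measured on mouse Affymetrix arrays. Each array held unpooled spleen RNA. The Nix_KO arrays carry the numbers 10, 2, 3 and 6 and the WT arrays the numbers 3, 4, 5 and 6. The labels used here give no strain, no description of the Nix allele and no statement that equal numbers mark related animals, so p-values measure the spread between these arrays.

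Erythropoietin is the hormone that keeps red cell precursors alive and dividing. It binds a receptor, EPOR, that has no kinase of its own and depends on the bound kinase JAK2, which phosphorylates the receptor and the transcription factors STAT5A and STAT5B. These enter the nucleus and switch on genes such as Cish, Socs2, Socs3 and Pim1. The SOCS family products in turn dampen cytokine signalling, while PIM1 is a serine/threonine kinase that favours survival. KIT, the receptor for stem cell factor, is itself a tyrosine kinase, and it acts earlier, in stem cells, progenitors and mast cells. GAB1 is a scaffold that links activated receptors to the PI3 kinase and RAS pathways. In mice the spleen is a site of red cell production as well as a lymphoid organ.

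Values are log2 intensities, so a difference of 1 is a doubling. Median linear intensity per array ranged from 28.85 to 30.61, and 48.6% to 49.3% of probe sets lay at a log2 of at least 5 on each array. The number of arrays limits the precision. The targeted gene gave no check of the labels. Each of its 3 probe sets also carries the symbol of the related sequence Bnip3l-ps, and none lay below 9.38 on any array. They differed between the genotypes by 0.43, -0.50 and 0.58, with limma adjusted p of 0.158, 0.164 and 0.117, so none was called. Markers of pancreas stood high on Nix_KO array 3, WT array 3 and WT array 5, at mean log2 intensities of 12.77, 11.65 and 9.50, against 4.48 to 6.84 on the other arrays. The member results are therefore given also without these 3 arrays. All 10 erythroid markers measured were higher in Nix_KO spleens, with means of 12.81 to 13.27 against 9.94 to 11.90. The same held for all 8 neutrophil markers and all 3 markers of dividing cells measured. In contrast, 6 of 6 B cell, 5 of 6 T cell and 6 of 7 stromal and endothelial markers were lower. Of 7 macrophage markers 3 were lower, and of 5 megakaryocyte markers 1 was. The marker means of T cells, macrophages and megakaryocytes overlapped between the genotypes. Over all genes tested, 14.2% were called higher and 24.1% lower. These are RNA levels of whole spleen, in which fewer cells of a type and less RNA per cell cannot be told apart.

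Of the 24 probe sets, 19 reached a log2 of at least 5 on at least 4 of the 8 arrays and entered the limma fit over 22347 probe sets. The other 5, which are Kit B, Gab1 C and Socs2 D, E and F, stayed at or below 5.17 on every array. Letters rank the probe sets of a gene from the brightest, A, downwards. At a Benjamini-Hochberg adjusted p under 0.05, 7 of the 19 differed between the genotypes, or 36.8%, against 30.0% of all probe sets tested. Of these, 6 were higher in Nix_KO, or 31.6%, against 12.5% of all, and 1 was lower, or 5.26%, against 17.6% of all. In 7 of the 19 the ranges of the 2 genotypes did not overlap, again 36.8%, against 34.6% of all. The median difference was -0.06 over the members and -0.12 over all probe sets tested. With 1 probe set per gene, 6 of the 10 members were called, against 38.3% of 11027 genes. Epor, Gab1, Cish and Pim1 were higher (14.2% of all genes were), and Stat5b and Socs3 were lower (24.1% of all genes were).

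**Figure D1:**
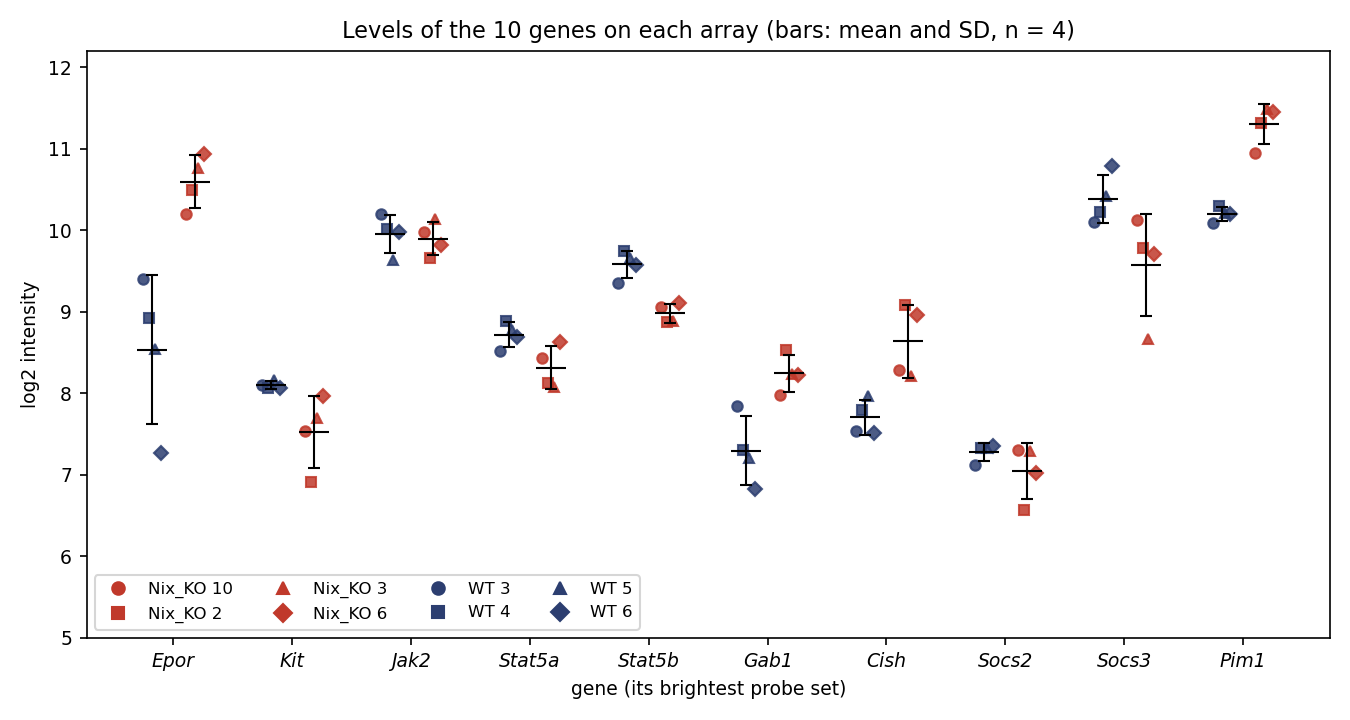
Log2 intensity (vertical axis) of the brightest probe set of each of the 10 genes (horizontal axis) on every array, with red symbols for the 4 Nix_KO and blue symbols for the 4 WT spleens and bars for mean and SD. Epor, Gab1, Cish and Pim1 lie higher on every Nix_KO array than on any WT array, Kit and Stat5b lie lower on every Nix_KO array, and the ranges of Jak2, Stat5a, Socs2 and Socs3 overlap.

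The promoters of 3 members are shown because they belong to members that moved in different ways: the receptor gene Epor, which was higher, and a pair of STAT5 target genes, Cish, which was higher, and Socs3, which was lower at the level of genes. The stretches are 110 bases each, from RefSeq on build GRCm38.p6, written 5′ to 3′ on the strand of the gene. Capitals mark TTCNNNGAA, the palindrome that STAT proteins bind, in Cish and Socs3, and TTATCT, the complement of the GATA factor motif AGATAA, in Epor. The Epor stretch lies on the minus strand at chr9:21963577-21963686 and ends just before the transcription start. The Cish stretch lies on the plus strand at chr9:107296569-107296678 and runs 20 bases past the start. The Socs3 stretch lies on the minus strand at chr11:117969467-117969576 and ends 100 bases before the start.
Epor: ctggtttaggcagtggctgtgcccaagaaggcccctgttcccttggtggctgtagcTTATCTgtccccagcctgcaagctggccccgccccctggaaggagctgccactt
Cish: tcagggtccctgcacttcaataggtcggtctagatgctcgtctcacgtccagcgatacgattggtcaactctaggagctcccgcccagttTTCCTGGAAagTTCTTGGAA
Socs3: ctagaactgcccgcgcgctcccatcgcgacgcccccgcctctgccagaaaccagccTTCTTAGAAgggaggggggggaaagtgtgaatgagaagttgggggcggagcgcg
The table of promoters covered 9 of the 10 members in 14 windows of 300 bases, from 250 before to 50 after the start. It had no entry for Socs2, whose promoter was therefore not searched. TTCNNNGAA occurred in 8.3% of all 32851 windows, and among the members in Cish, Socs3 and Gab1. Cish held a pair of matches beginning at bases 1 and 12 counted from the start, Socs3 held 1 beginning 154 bases upstream, and Gab1 held 1 in each of 2 windows. AGATAA or TGATAA, searched on both strands, occurred in 18.6% of all windows and among the members in Epor only, beginning 54 bases upstream. A match describes the letters of a window and is not a measurement of binding.

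Of the receptors, Epor was the member with the largest difference. Its single probe set, 1423344_at, read 10.20, 10.49, 10.76 and 10.94 on the Nix_KO arrays numbered 10, 2, 3 and 6. It read 9.41, 8.93, 8.55 and 7.26 on the WT arrays numbered 3, 4, 5 and 6. Every Nix_KO array lay above every WT array, and the WT arrays spread more widely, with an SD of 0.92 (n = 4) against 0.32 (n = 4), the lowest being WT array 6. The difference was 2.06 log2 units (SE 0.40, 95% interval 1.16 to 2.96), a 4.17-fold higher level, with a limma adjusted p of 0.00627. It stayed between 1.64 and 2.35 when each array was left out in turn, and the call was kept each time. Without the 3 arrays with pancreatic signal it was 2.44, with an adjusted p of 0.0548 among probe sets and 0.0274 among genes.

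Kit showed a smaller difference of the opposite sign, which lay just outside the threshold. Its brighter probe set, 1452514_a_at, read 7.54, 6.91, 7.70 and 7.96 on the Nix_KO arrays. On the WT arrays it read 8.10, 8.06, 8.17 and 8.06. The WT arrays lay within an SD of 0.05 (n = 4), all of them above the highest Nix_KO array, and Nix_KO array 2 lay lowest. The difference was -0.57 (SE 0.21, 95% interval -1.05 to -0.09), with a limma adjusted p of 0.0705 among probe sets and 0.0527 among genes. Without Nix_KO array 2 it was -0.37, and without Nix_KO array 6, the highest of its group, it was -0.72 with an adjusted p of 0.0295. Among genes it passed under 4 other settings, with limma adjusted p of 0.0485 for averaged probe sets, 0.0473 for a stricter filter, 0.0496 for an offset and 0.0212 for array weights. Averaging left the value of Kit itself unchanged, because its second probe set was not tested. Kit did not pass with no filter (0.0765), quantile normalization (0.0730), the variance trend (0.0543) or array median centring (0.0837, at a difference of -0.45). Leaving out the arrays with pancreatic signal gave -0.59, with an adjusted p of 0.274 among probe sets. The second probe set, 1415900_a_at, was dim, with 4.68 to 4.86 in Nix_KO and 4.70 to 5.17 in WT spleens.

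Kit is a marker of progenitors and of mast cells, and the levels of other such markers are given beside it. Of 6 early progenitor markers, 5 were measured. Cd34, Flt3 and Meis1 were lower in Nix_KO spleens, Myb was higher, and Gata2 did not pass the threshold. The mean of the measured markers was 7.35 to 7.56 in Nix_KO and 7.64 to 7.80 in WT spleens. Of 7 mast cell markers, 6 stayed between 2.71 and 4.64 at their highest, among them the defining genes Cpa3, Ms4a2 and Cma1, below the filter in both genotypes. The seventh, Hdc, differed by -0.02. The part of progenitor markers in the Kit values was not tested.

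JAK2, the kinase that EPOR needs, showed no detectable difference in its RNA. The brighter Jak2 probe set, 1421066_at, read 9.97, 9.65, 10.14 and 9.82 in Nix_KO spleens and 10.19, 10.02, 9.64 and 9.97 in WT spleens. The groups overlapped almost completely. The difference was -0.06 (SE 0.17, 95% interval -0.45 to 0.33), with a limma adjusted p of 0.824, and its sign turned when arrays were centred on their medians (0.07). The interval leaves room for a change of either sign of that size. The dimmer probe set, 1421065_at, ranged from 5.46 to 7.09 and from 5.39 to 6.65 and differed by 0.12 (95% interval -0.74 to 0.98). Leaving out the arrays with pancreatic signal gave -0.18 and -0.25.

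STAT5A and STAT5B are near-identical proteins encoded by neighbouring genes on chromosome 11. Stat5b was the member called lower among probe sets. Its brighter probe set, 1422103_a_at, read 9.06, 8.88, 8.88 and 9.11 in Nix_KO spleens and 9.36, 9.74, 9.66 and 9.57 in WT spleens. The groups did not overlap and both were tight, with SDs of 0.12 and 0.17 (n = 4 each). The difference was -0.60 (SE 0.15, 95% interval -0.93 to -0.28), a 1.52-fold lower level, with a limma adjusted p of 0.0143. Without WT array 4, the highest, it was -0.55 with an adjusted p of 0.0533 among probe sets. Leaving out the 3 arrays with pancreatic signal gave -0.64, with an adjusted p of 0.102 among probe sets and 0.0658 among genes. The dimmer probe set, 1422102_a_at, differed by -0.41 (95% interval -0.92 to 0.10) and its ranges overlapped.

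Stat5a also had negative differences, which did not pass the threshold. Its brighter probe set, 1421469_a_at, read 8.43, 8.13, 8.07 and 8.63 in Nix_KO spleens and 8.52, 8.89, 8.78 and 8.69 in WT spleens. Nix_KO array 6 lay above WT array 3, so the ranges overlapped. The difference was -0.41 (SE 0.17, 95% interval -0.79 to -0.02), with a limma adjusted p of 0.0991. The dimmer probe set, 1450259_a_at, differed by -0.63 (95% interval -1.36 to 0.09). Both Stat5a probe sets passed without Nix_KO array 6, at -0.51 (adjusted p 0.0445) and -0.95 (adjusted p 0.0157). Without Nix_KO array 3 they were -0.32 (adjusted p 0.197) and -0.42 (adjusted p 0.347), and without the arrays with pancreatic signal -0.39 and -0.49.

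Gab1, the adaptor, was higher in Nix_KO spleens on both of its probe sets that were tested. The brighter, 1417693_a_at, read 7.98, 8.53, 8.24 and 8.23 in Nix_KO spleens and 7.84, 7.31, 7.21 and 6.82 in WT spleens. The lowest Nix_KO array lay just above WT array 3. The difference was 0.95 (SE 0.22, 95% interval 0.44 to 1.45), a 1.93-fold higher level, with a limma adjusted p of 0.0132, and the call was kept when any single array was left out. The second probe set, 1417694_at, read 7.09, 7.45, 7.61 and 8.40 against 7.23, 6.71, 6.50 and 6.07. Here Nix_KO array 10 lay below WT array 3, so the ranges overlapped. The difference was 1.01 (SE 0.31, adjusted p 0.0369), and it failed the threshold in 6 of the 8 fits that left out 1 array (without Nix_KO 2, 3 or 6, or WT 4, 5 or 6), with values of 0.75 to 1.07 in those fits. The remaining probe set, 1448814_at, lay between 2.50 and 2.79 on 7 arrays and at 4.84 on Nix_KO array 6, below the filter throughout. On the 5 arrays without pancreatic signal the brightest probe set differed by 1.18, with an adjusted p of 0.0609 among probe sets and 0.0323 among genes.

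**Figure D2:**
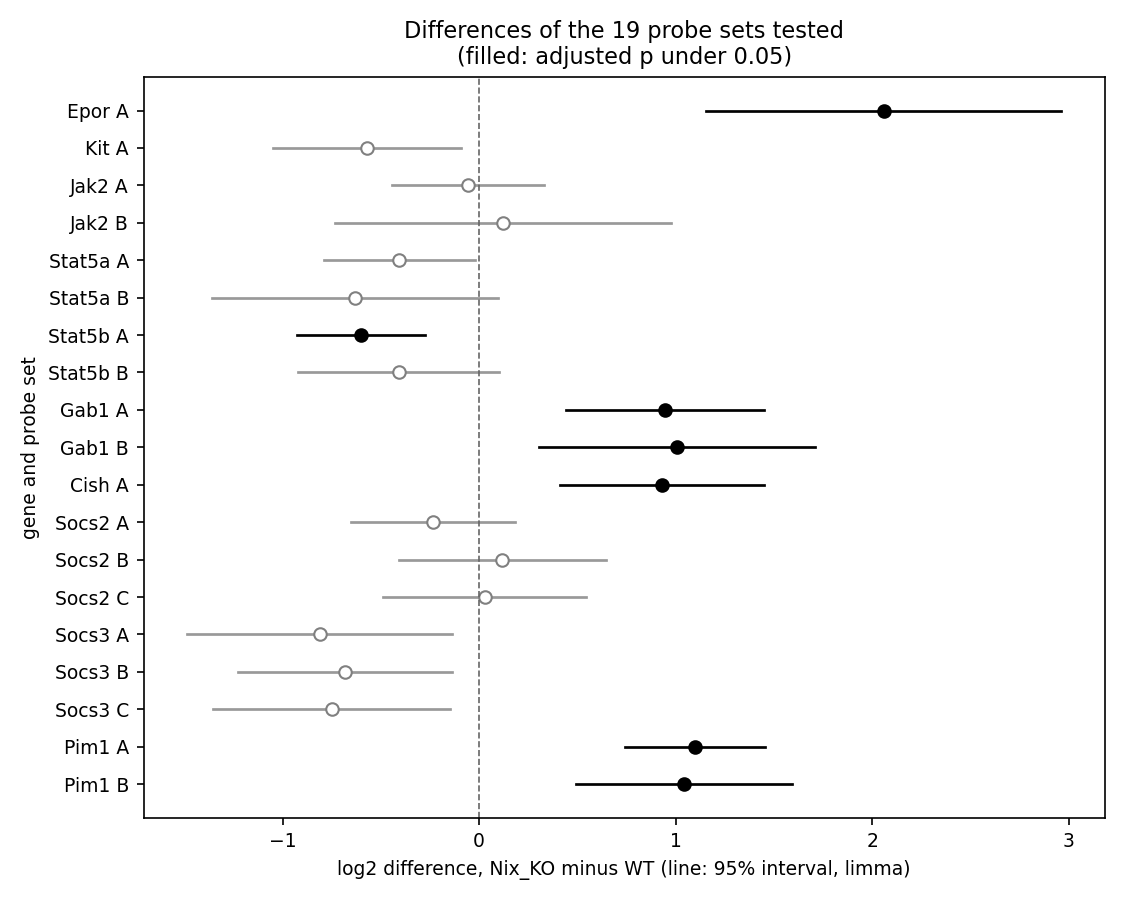
Log2 difference, Nix_KO minus WT (horizontal axis), of each of the 19 probe sets tested (vertical axis), with the 95% interval of the limma fit as a line and filled symbols where the adjusted p is under 0.05. Epor stands apart at 2.06, and the probe sets of Gab1, Cish and Pim1 lie between 0.93 and 1.10. The intervals of Jak2, of Socs2 and of the dimmer probe sets of Stat5a and Stat5b include 0.

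The genes that STAT5 switches on did not move as a block. Cish, whose product binds activated cytokine receptors and blocks STAT5 docking, was higher in Nix_KO spleens. Its single probe set, 1448724_at, read 8.29, 9.08, 8.21 and 8.96 in Nix_KO spleens and 7.54, 7.79, 7.97 and 7.52 in WT spleens. The groups did not overlap, and Nix_KO arrays 2 and 6 lay above arrays 10 and 3. The difference was 0.93 (SE 0.23, 95% interval 0.41 to 1.45), a 1.91-fold higher level, with a limma adjusted p of 0.0160. Without WT array 6, the lowest, it was 0.87 with an adjusted p of 0.0519 among probe sets. On the arrays without pancreatic signal it was 1.12, with an adjusted p of 0.0794 among probe sets and 0.0456 among genes.

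Pim1, the survival kinase, was higher on both of its probe sets. The brighter, 1435458_at, read 10.94, 11.32, 11.49 and 11.44 in Nix_KO spleens and 10.09, 10.30, 10.21 and 10.20 in WT spleens. The WT arrays lay within an SD of 0.09 (n = 4), and the lowest Nix_KO array lay above them all. The difference was 1.10 (SE 0.16, 95% interval 0.74 to 1.46), a 2.14-fold higher level, with a limma adjusted p of 0.00293. The dimmer probe set, 1423006_at, read 6.89, 7.62, 7.11 and 6.53 against 6.24, 6.17, 5.98 and 5.58, and differed by 1.04 (SE 0.25, adjusted p 0.0130). Both calls were kept when any single array was left out. Leaving out the arrays with pancreatic signal gave 0.99 for the brighter probe set, with an adjusted p of 0.0641 among probe sets and 0.0352 among genes.

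Socs3, an inhibitor of JAK kinases that many cytokines induce in immune cells, had negative differences on all 3 of its probe sets, just outside the threshold among probe sets and just inside it among genes. The brightest, 1455899_x_at, read 10.13, 9.78, 8.67 and 9.71 in Nix_KO spleens and 10.10, 10.23, 10.42 and 10.78 in WT spleens. Nix_KO array 10 lay level with WT array 3, and Nix_KO array 3 lay lowest on all 3 probe sets. The differences were -0.81, -0.68 and -0.75, with limma adjusted p of 0.0677, 0.0601 and 0.0611 among probe sets. Among genes the adjusted p was 0.0487, and this call was lost in 7 of the 8 fits that left out 1 array, all but the fit without Nix_KO array 10. Without Nix_KO array 3 the differences were -0.51, -0.48 and -0.49. Without the 3 arrays with pancreatic signal, of which Nix_KO array 3 is one, the brightest probe set differed by -0.63 with an adjusted p of 0.124 among genes. The suffix x_at of 2 of these probe sets marks designs whose probes can match other sequences.

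Socs2, which restrains growth hormone signalling as well as STAT5, differed little. Its brightest probe set, 1449109_at, read 7.31, 6.57, 7.29 and 7.02 in Nix_KO spleens and 7.11, 7.33, 7.33 and 7.36 in WT spleens. The ranges overlapped. The difference was -0.23 (SE 0.19, 95% interval -0.65 to 0.18), with a limma adjusted p of 0.363. The next probe sets, 1418507_s_at and 1446085_at, differed by 0.12 (95% interval -0.41 to 0.64) and 0.03 (95% interval -0.49 to 0.55), so the 3 did not share a sign. Without Nix_KO array 2, the lowest, the brightest differed by -0.08, and without the arrays with pancreatic signal the 3 differed by -0.38, -0.14 and -0.07.

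Differences between members were tested directly for 7 pairs by an exact two-sided permutation test over the 8 arrays, whose smallest possible p is 0.0286. The pairs were chosen with earlier results of these data known, which the p-values do not account for. Of the pairs, 5 moved unequally, each with an exact p of 0.0286 and an adjusted p of 0.0400 over the 7 pairs. Relative to Kit, Epor was 2.63 log2 units higher in Nix_KO than in WT spleens, and relative to Jak2 it was 2.12 higher. Cish was 1.17 higher relative to Socs2 and 1.74 higher relative to Socs3. Stat5a was 0.20 higher relative to Stat5b on their brightest probe sets, and this difference was -0.01 with a turned sign when all probe sets of each gene were averaged. With averaged probe sets the pairs of Epor and of Cish kept their signs, with adjusted p of 0.0667 to 0.0800. Socs2 relative to Socs3 (0.58, exact p 0.200) and Pim1 relative to Cish (0.17, exact p 0.686) gave no detectable difference. Without Nix_KO array 3 these were 0.20 and -0.04. On the 5 arrays without pancreatic signal only the values were compared. The 5 unequal pairs kept their signs there, at values of 0.25 (Stat5a relative to Stat5b) to 3.04 (Epor relative to Kit). The last 2 pairs were 0.26 and -0.14.

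The members were also set against the erythroid markers by the same exact test, as the level of each gene minus the mean of the 10 markers on the same array. This comparison, too, was chosen with earlier results of these data known. Epor moved by nearly the same amount as these markers. Epor minus the markers was -2.61, -2.55, -2.51 and -2.23 in Nix_KO spleens and -2.50, -2.45, -2.58 and -2.67 in WT spleens. These ranges overlap, and the difference between the genotypes was 0.07 (exact p 0.543, adjusted over 10 members 0.543). Gab1 was 1.04 log2 units lower relative to the markers in Nix_KO spleens (exact p 0.0286, adjusted 0.0408), so it was higher in absolute level but by less than they were. Relative to the markers Cish differed by -1.06 (exact p 0.0857) and Pim1 by -0.89 (exact p 0.114), which did not pass. The value of Pim1 was -0.50 without WT array 6 and -1.36 without the arrays with pancreatic signal. The other 6 members were lower relative to the markers, at -2.04 for Jak2, -2.22 for Socs2, -2.39 for Stat5a, -2.56 for Kit, -2.59 for Stat5b and -2.80 for Socs3, each with an exact p of 0.0286 and an adjusted p of 0.0408. The marker mean itself did not overlap between the genotypes, at 12.81 to 13.27 in Nix_KO and 9.94 to 11.90 in WT spleens. A member with little change of its own, such as Jak2 (-0.06), therefore reaches this p through the rise of the markers. Without the arrays with pancreatic signal Epor differed from the markers by 0.10, Gab1 by -1.17, Cish by -1.22 and these 6 members by -2.99 to -2.52.

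**Figure D3:**
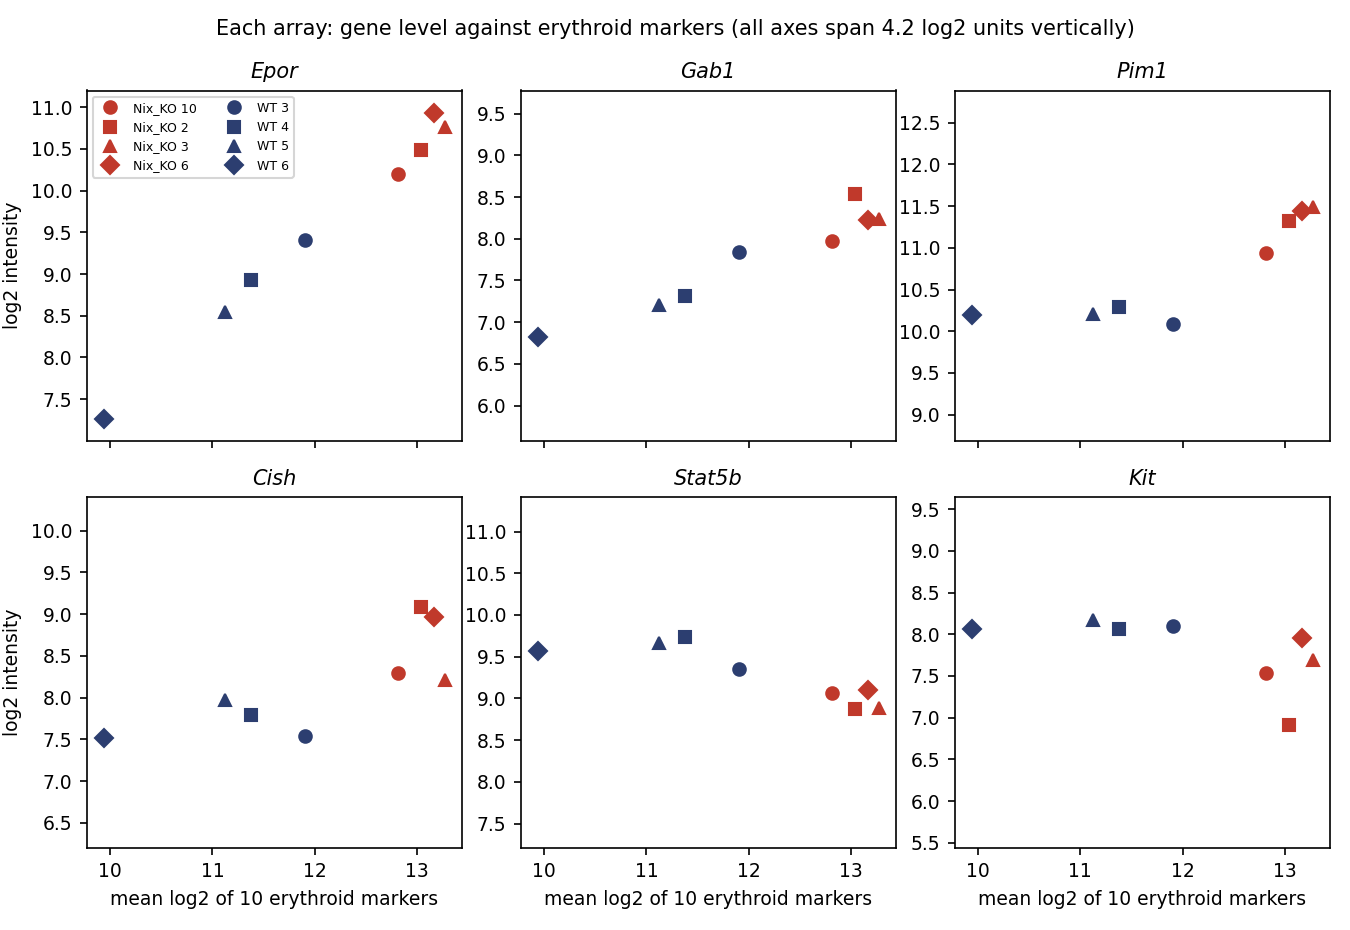
Log2 intensity of 6 members (vertical axes, all of equal span) against the mean log2 intensity of 10 erythroid markers (horizontal axis), 1 symbol per array, with Nix_KO in red and WT in blue. Epor rises with the markers within the WT arrays as well as between the genotypes, from 7.26 at a marker mean of 9.94 to 9.41 at 11.90, whereas the plotted, brighter probe set of Pim1 reads 10.09 to 10.30 on all WT arrays.

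Within the WT arrays the members differed in how they followed the erythroid markers, whose mean was 11.90, 11.38, 11.12 and 9.94 on arrays 3, 4, 5 and 6. Epor and both tested probe sets of Gab1 fell in that same order of arrays. The dimmer probe set of Pim1 fell in this order too, from 6.24 to 5.58. The brighter probe set of Pim1 and the probe set of Cish did not follow it, and their highest WT values were on arrays 4 and 5. All 3 probe sets of Socs3 rose in this order, the brightest from 10.10 to 10.78. The dimmer probe set of Stat5b rose in it as well, from 5.18 to 5.65. Neutrophil marker means (11.17 to 8.41) and dividing cell marker means (10.87 to 9.58) also fell from WT array 3 to WT array 6 in this order. With 4 arrays this order is a description, and it cannot tell these marker lists apart. Over all 8 arrays and 11026 other genes, the genes whose log2 intensity was most like that of Epor by Pearson r were Ift140 (0.998), Slc38a5 (0.998), 1300017J02Rik (0.997), Tspan33 (0.997) and Ubac1 (0.997), and Tspan33 is itself one of the erythroid markers. With the genotype means taken out, r was 0.990 to 0.994 for these 5 genes. Among the members, Gab1 ranked 276 in likeness to Epor (r 0.953), Pim1 ranked 944 (0.860) and Cish ranked 1457 (0.772). With the genotype means taken out, r with Epor was 0.824 for Gab1, 0.205 for Pim1 and 0.177 for Cish. The genes most like Kit were Klhl20 (0.988), Sema3g (0.984), Rab11b (0.981), Osbp (0.978) and Zfp592 (0.978). For these, r was 0.957 to 0.981 with the genotype means taken out. Sema3g passed the threshold between the genotypes (limma adjusted p 0.0116), and the others did not. All these values share the 8 arrays and their 2 genotypes.

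The rest of the pathway was described through 72 genes in 8 lists by role, of which 57 were tested, 4 were too dim and 11 were not analysed here. Each gene is given by its brightest probe set, and the probe sets of a gene did not always agree. Csf2rb, Tyk2, Fyn, Stat3, Pik3cd, Cbl, Socs5, Ccnd2 and Ccnd3 held both called and uncalled probe sets. Csf2rb2 and Osm were called among genes but held no called probe set. Jak1, Cblb and Pik3r1 were not called among genes but held a called probe set, lower for Jak1 and Cblb and higher for Pik3r1. Of the 57, 7 were higher in Nix_KO spleens (12.3%, against 14.2% of all genes), 26 were lower (45.6%, against 24.1%) and 24 did not pass, with a median difference of -0.49 against -0.15 over all genes tested. Of the ligands, Kitl, which encodes stem cell factor, differed by -0.11 (adjusted p 0.612), Il3 and Csf2 were too dim, and Epo and Thpo were not analysed here. Of 3 receptor partners, Tfr2, a transferrin receptor of the erythroid lineage that binds EPOR, was 5.46-fold higher (2.45 log2 units, SE 0.47, adjusted p 0.0035). Csf2rb and Csf2rb2, which encode beta chains of the interleukin-3 receptor family, differed by -0.81 and -1.26, with adjusted p of 0.0258 and 0.0372.

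Kinases and STAT genes related to the members were tested beside the 24.1% of all genes that were called lower. Of 6 kinases, 5 fell: Jak3, the kinase of lymphoid cytokine receptors (-1.32), Tec (-1.09), Tyk2 (-0.77), Btk, the B cell kinase (-0.62), and Fyn (-0.53). Jak1 differed by -0.35 and did not pass. Of 3 other STAT genes, Stat3 (-1.18) and Stat6 (-1.06) fell, and Stat4 differed by -1.05 without passing. Among 11 adaptor and RAS-MAPK genes, 4 fell, which were Vav1 (-1.27), Grb2 (-0.93), Map2k1 (-0.92) and Gab2 (-0.69), and 7 did not pass. In the PI3 kinase list of 7 genes, Foxo3, a transcription factor that AKT holds out of the nucleus, rose by 1.30, and Pik3cd, the catalytic subunit of leukocytes, fell by 1.34. B and T cell markers fell beside these genes, with means of 9.83 to 10.71 against 11.60 to 11.91 for B cells and 8.64 to 9.68 against 9.63 to 10.26 for T cells, and their part in these differences was not tested.

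Of 16 negative regulators tested, 7 fell (43.8%, against 24.1% of all genes), 1 rose (6.25%, against 14.2%) and 8 did not pass. Ptpn6, the phosphatase SHP-1 that switches off JAK2 at EPOR, fell to a level 3.04-fold lower (-1.61, SE 0.28, adjusted p 0.0026). Sh2b3, the adaptor LNK that restrains JAK2 and KIT, differed by -1.38. The others were Inpp5d (-1.02), Ptpn1 (-0.83), Dusp6 (-0.83), Cbl (-0.78) and Socs5 (-0.77), while Dok2 rose by 0.63. Among 10 other targets 4 rose (40%, against 14.2% of all genes) and 5 fell (50%, against 24.1%). The transferrin receptor gene Tfrc rose 3.74-fold (1.90, SE 0.36, adjusted p 0.0031), and Bcl2l1, which encodes the survival protein BCL-XL, rose 2.71-fold (1.44, SE 0.23, adjusted p 0.0019). Cdc25a (0.93) and Ccnd3 (0.84), which drive the cell cycle, rose as well. Id1 (-0.85), Ccnd2 (-0.81), Pim3 (-0.78), Pim2 (-0.65) and Osm (-0.44) fell.

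Leaving out 1 array at a time removed the call of 9 of the pathway genes named as changed. Csf2rb2 lost it in 6 of 8 fits (without Nix_KO 2 or 3 or any WT array, at -1.33 to -0.88), as did Fyn (without Nix_KO 2, 3 or 6 or WT 4, 5 or 6, at -0.59 to -0.36). Gab2 lost it without Nix_KO 10 or 2 or any WT array (-0.73 to -0.49), and Osm without Nix_KO 3 or 6 or any WT array (-0.47 to -0.34). Csf2rb lost it without Nix_KO 2 or 3 or WT 4, 5 or 6 (-0.84 to -0.59), and Dok2 without Nix_KO 10 or 2 or WT 3, 4 or 6 (0.53 to 0.63). For Ccnd2 this held without Nix_KO 2, WT 5 or WT 6 (-0.77 to -0.73), for Socs5 without WT 4 or WT 6 (-0.70 for both) and for Pim2 without WT 6 (-0.60). Without the 3 arrays with pancreatic signal, 7 pathway genes were higher and 7 were lower. Of the 26 lower genes, Stat3, Stat6, Tec, Vav1, Grb2, Pik3cd and Ptpn6 still passed.

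**Figure D4:**
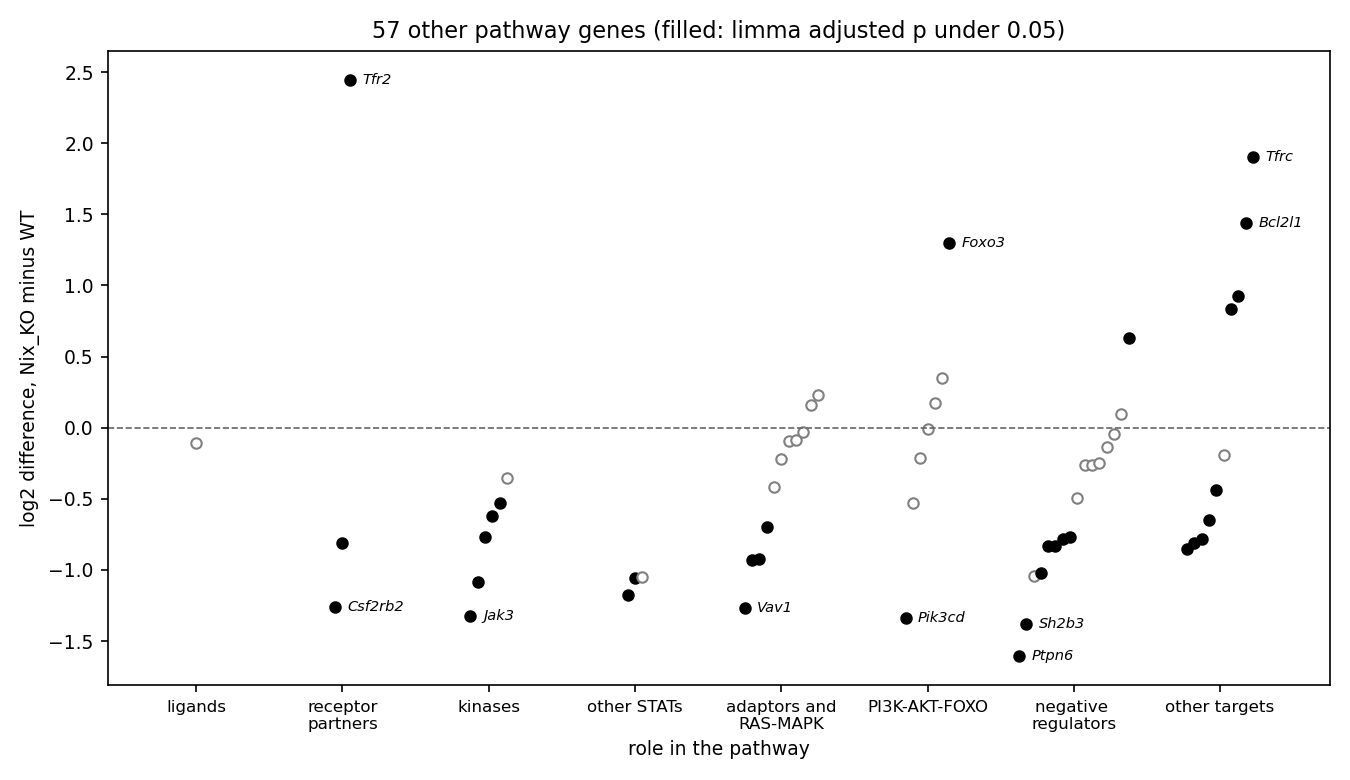
Log2 difference, Nix_KO minus WT (vertical axis), of the 57 pathway genes tested besides the 10 members, by role (horizontal axis), with filled symbols where the limma adjusted p is under 0.05. Tfr2, Tfrc, Bcl2l1 and Foxo3 lie highest, at 1.30 to 2.45, and Ptpn6 lies lowest, at -1.61.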

How the data were processed

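Total RNA of 8 mouse spleens was hybridised to Affymetrix arrays. The deposited values are linear intensities made with GCRMA by the authors, per the submitters' processing notes, which name no version. They were log2-transformed with no offset. The 64 control probe sets were left out. Of 45037 others, 34945 carry 1 gene symbol, 932 several and 9160 none in the platform annotation. Of the 34945, 34741 matched the RefSeq gene table (GRCm38.p6) by Entrez ID, with 0 differing symbols. Genotypes were compared with limma 3.58.1 in R 4.3.3 (lmFit, eBayes, two-sided) over 22347 probe sets with a log2 of at least 5 on at least 4 arrays, and over 11027 genes by the probe set with the highest mean. P-values were Benjamini-Hochberg adjusted, with a threshold of 0.05. Differences between members were tested by exact permutation over arrays. The fit was tested on simulated data. Intervals cover 95%.

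The text names all 10 members with every probe set, every pathway gene past the threshold, and the 5 genes most like Epor and Kit. Genes named without passing illustrate a list. The members, lists and tests were chosen with earlier results of these data known. Promoters were searched for the motifs given. Alternatives were the filter, normalization, centring, an offset, the variance trend, array weights, averaged probe sets, left-out arrays and a replicate block.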

Additional observations from a re-analysis of the deposited data

Results flagged for a closer look

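In 72 groups of 4 values (each genotype of each probe set or difference), the array farthest out was compared with Dixon's 95% critical ratio, which chance exceeds in about 1 of 20 groups. It was exceeded in 6, all of WT arrays, and 4 of the 6 concern WT array 6. Stat5b probe set B read 5.65 on WT array 6, against 5.18 to 5.22 on the other WT arrays. Epor minus Jak2 was -2.71 on WT array 6, against -1.09 to -0.79. Cish minus Socs3 was -3.27 on WT array 6, against -2.56 to -2.43. Gab1 minus the erythroid markers was -3.11 on WT array 6, against -4.07 to -3.92. The erythroid marker mean of this array, 9.94, was the lowest of the 8. Socs2 probe set A read 7.11 on WT array 3, against 7.33 to 7.36, and Socs2 probe set B read 5.99 on WT array 5, against 6.86 to 6.96.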

How the results depend on the processing

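Of 19 member probe sets, 7 were called under quantile normalization, array median centring, an offset of 16 and the variance trend, 9 with array weights (Kit A at -0.51 and both Stat5a probe sets gained, Gab1 B lost) and 6 with no filter. Left-out single arrays gave 5 to 10 calls, and 29 to 40 of 67 member and pathway genes, against 39. Without Nix_KO 3, WT 3 and WT 5, limma called 0 member probe sets (8 had an unadjusted p under 0.05) and 18 genes, with 3.09% of all probe sets called. Equal replicate numbers (3 and 6) exist for 4 arrays, and the labels do not say that they pair animals. With these numbers as a replicate block, 0 member probe sets (9 unadjusted) and 14 genes were called. The same 4 arrays without the block, a fit added after seeing the data, gave 0 (6 unadjusted) and 0 (28 unadjusted). The cause of these losses was not tested beyond the smaller number of arrays. With all probe sets of a gene averaged, the change of Stat5a minus Stat5b reversed to -0.013, and Epor minus Kit (2.63), Epor minus Jak2 (2.03), Cish minus Socs2 (0.96) and Cish minus Socs3 (1.68) lost their calls over 7 pairs. For exact tests with an array left out, only the values were compared. Array median centring moved the median difference of all probe sets from -0.12 to 0.00013 and the share of calls that are higher from 41.6% to 52.4% (genes, 37.1% to 47.8%), with Epor at 2.18 and Stat5b at -0.48 under it. Among genes, Socs3 lost its call under no filter, quantile normalization, centring and array weights, Kit gained one with averaged probe sets, a filter of log2 7, the offset and array weights, and Stat5a with array weights.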

Other observations

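Members were set against close relatives in 8 pairs that were chosen after the values were seen, so the differences are a description with no test. Relative to Pim2 and Pim3, the other kinases of its family, Pim1 was 1.75 and 1.88 log2 units higher in Nix_KO than in WT spleens, and Gab1 was 1.64 higher relative to Gab2. Jak2 was 0.71 higher relative to Tyk2 and 1.26 higher relative to Jak3. Stat5b was 0.46 higher relative to Stat6 and 0.58 higher relative to Stat3. Epor relative to Tfr2 differed by -0.39. Without the 3 arrays with pancreatic signal each pair kept its sign.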
